A study of Homo sapiens with 2 samples.

Results

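S100 and annexin genes were taken as every gene whose symbol in the platform annotation is S100 followed by A, B, G, P or Z, with at most a number and a further letter after it, or begins with ANXA and a number. The rule matched 34 of the 17687 genes named here, 20 S100 genes and 14 annexin symbols, each with 1 probe set. One of the 14, ANXA2R, encodes a receptor for annexin A2 and is not itself an annexin. The data are 1 array each of MKN1 cells overexpressing RHOA Y42C and of MKN1 cells overexpressing RHOA wild-type (WT below). MKN1 is an established human gastric cancer line of adenosquamous origin, RHOA is a GTPase that sets actomyosin contraction, and Y42C is a tyrosine-to-cysteine substitution. Both lines carry a pBABE retroviral plasmid and were selected with puromycin, and whether either line is a clone is not given in the sources used here. No parental or empty-vector array was analysed here, so the direction of a difference cannot be assigned to 1 of the lines. With 1 array per line there is no replicate check, no error and no test. Every difference below describes these 2 arrays.

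S100 proteins are small calcium-binding proteins of the EF-hand type that mostly act as dimers, inside the cell on target proteins and, for some of them, outside it on receptors such as RAGE. Most of their genes lie together on chromosome 1, in the epidermal differentiation complex, beside genes for proteins of the cornified cell envelope. Annexins bind acidic phospholipids when calcium is present, and several form complexes with S100 dimers, of which annexin A2 with S100A10 is the best known. Both families take part in membrane repair, vesicle traffic, the cortical actin cytoskeleton and inflammation.

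A member was counted as above the minimum when its signal on either array was no lower than the 95th percentile of 349 olfactory receptor genes there, 5.14 for Y42C and 5.17 for WT. Values are taken as log2 from their range, since the base is not stated, and every fold rests on that. This left 25 of the 34 members, 12 S100 genes and 13 annexin symbols, against 11802 of all 17687 genes. Of the 25, 24 were above it on both arrays, and ANXA10 on the Y42C array alone. Of the 25, 6 were higher in Y42C by 2-fold or more, beside 7.46% of all genes above the minimum, and 3 were lower by 2-fold or more, beside 9.8% of all genes. With each array centred on its median over the genes above the minimum, the higher genes made 54.3% of all genes past 2-fold, against 43.2% as deposited. The members' counts stayed at 6 and 3. The 9 members apart by 2-fold in either direction make 36.0% of the 25, against 17.3% of all genes. Higher by any amount were 13 of the 25, and 45.2% of all genes. The median difference was 0.12 over the 25 members and -0.07 over all genes. Among S100 genes 4 were higher and 1 lower by 2-fold or more (median 0.30), and among annexin symbols 2 were higher and 2 lower (median 0.12). ANXA10, 1 of the 6 higher members, passed the minimum only through the array on which it was brighter, so it had to differ. Raising values below the minimum to it leaves 5 members higher by 2-fold or more.

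**Figure D1:**
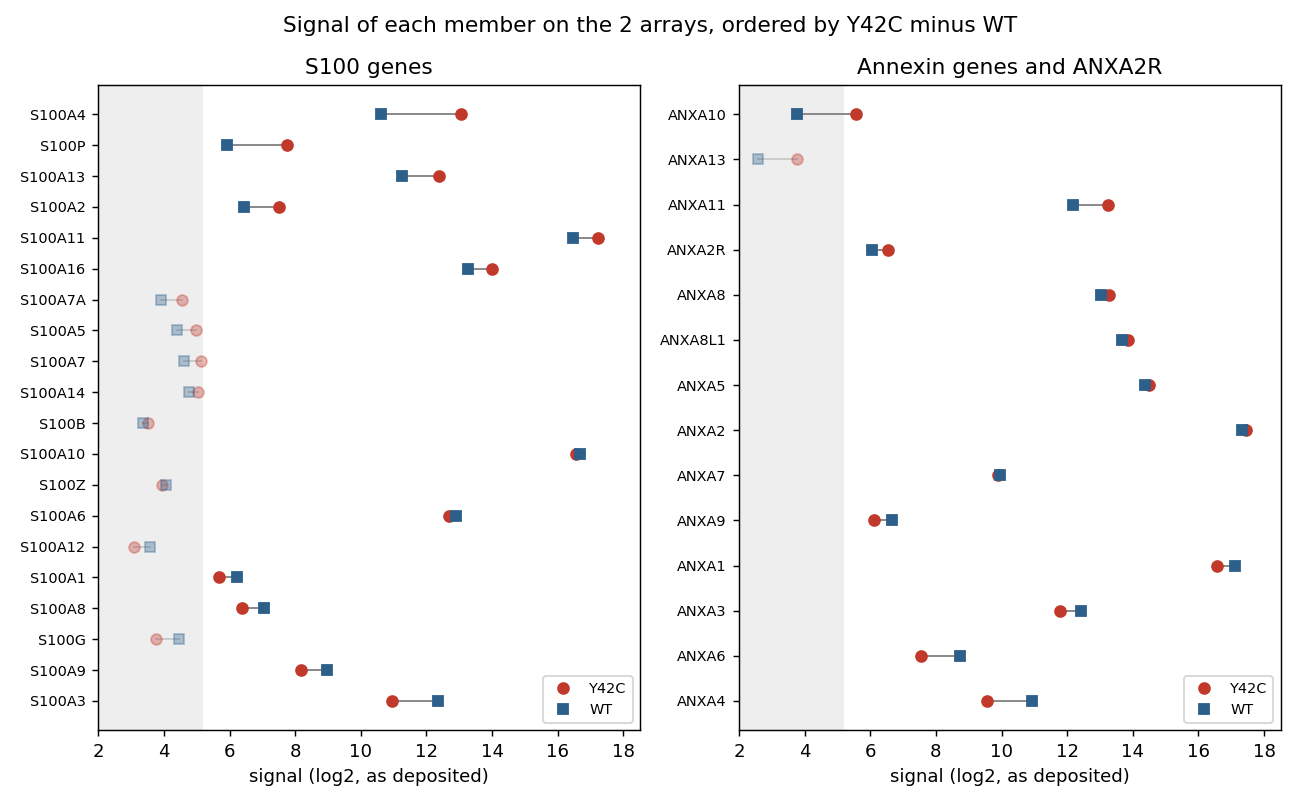
Signal of every member in log2 units as deposited, S100 genes on the left and annexin symbols on the right, with Y42C as circles and WT as squares (1 array each, so no error bars). Genes are ordered by Y42C minus WT, with S100A4 (2.41) at the top of the S100 panel and S100A3 (-1.39) at its foot, the grey area ends at the WT minimum of 5.17, and pale symbols mark the 9 members below the minimum on both arrays.

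The cell type was checked first, since S100 genes also mark leukocytes and squamous cells. Of 6 epithelial markers 5 were above the minimum on both arrays, with KRT8 at 17.94 in Y42C and 17.96 in WT, and CDH1 was below it on both (3.86 in Y42C and 3.92 in WT). The squamous keratin KRT14 stood at 14.52 in Y42C and 14.32 in WT, and KRT5 at 8.82 in Y42C and 9.48 in WT. The other squamous markers listed, KRT6A and TP63, are not among the genes named here. The 6 gastric markers, among them TFF1 and MUC5AC, were all below the minimum on both arrays. Of 5 fibroblast markers named here, COL1A1 alone was above it, with 5.84 in Y42C and 6.05 in WT. RHOA signal was 16.30 in Y42C and 16.47 in WT, a value that does not check the labels because both vectors carry RHOA. The 2 arrays correlated at r = 0.959 across the genes above the minimum, which are not independent replicates. Signals of different probe sets cannot be set against each other, so levels are compared below only between arrays and with the minimum.

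S100A4 had the most positive difference of the 25 members. Its protein, first known from metastatic cells, binds non-muscle myosin IIA and is used as a marker of mesenchymal cells. Signal was 13.04 in Y42C and 10.63 in WT, a 5.31-fold higher value in Y42C and far above the minimum on both arrays. Of the 11802 genes, 50 (0.424%) were at least as much higher, S100A4 among them. S100P, which encodes a ligand of the receptor RAGE that is often raised in digestive tract cancers, followed with 7.74 in Y42C and 5.93 in WT, 3.51-fold higher. The WT value of S100P lay 0.76 above its minimum, so it was close to background in that array. Of all genes, 174 (1.47%) were at least as much higher as S100P.

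S100A13 and S100A2 were also past 2-fold. S100A13, which takes part in the unconventional export of FGF1, had 12.39 in Y42C and 11.26 in WT, 2.19-fold higher. S100A2, a gene of basal and squamous epithelium, had 7.52 in Y42C and 6.45 in WT, 2.10-fold higher. Both differences were close to the threshold, at 1.13 and 1.07, and 5.91% and 6.71% of all genes were at least as much higher. The WT value of S100A2 lay 1.28 above its minimum.

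S100A3 went the other way. This cysteine-rich S100 protein is best known from the hair cuticle. Its signal was 10.96 in Y42C and 12.35 in WT, 2.62-fold lower in Y42C, and 434 genes (3.68%) were at least as much lower. S100A3 and S100A4 are neighbouring protein-coding genes on chromosome 1 and lie on the same strand, yet their differences were 3.80 apart on the log2 scale, the one well below and the other well above that of most genes. A non-coding gene that overlaps both on the opposite strand, LOC101928034, was below the minimum on both arrays (4.37 in Y42C and 4.44 in WT).

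Among annexins, ANXA4 and ANXA6 were lower in Y42C. ANXA4, an epithelial annexin that associates with membranes after calcium entry, had 9.57 in Y42C and 10.93 in WT, 2.57-fold lower. ANXA6, which has an extended set of annexin repeats and acts in endosomal cholesterol traffic, had 7.56 in Y42C and 8.73 in WT, 2.25-fold lower. Of all genes, 4.01% and 6.75% were at least as much lower as these. ANXA11, an annexin that ties RNA granules to lysosomes, was 2.07-fold higher, with 13.23 in Y42C and 12.18 in WT, as 6.92% of all genes were or more. ANXA10, an annexin known from gastric epithelium, had 5.55 in Y42C and 3.78 in WT. Since its WT value was below the minimum, it was at least 1.30-fold higher in Y42C.

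**Figure D2:**
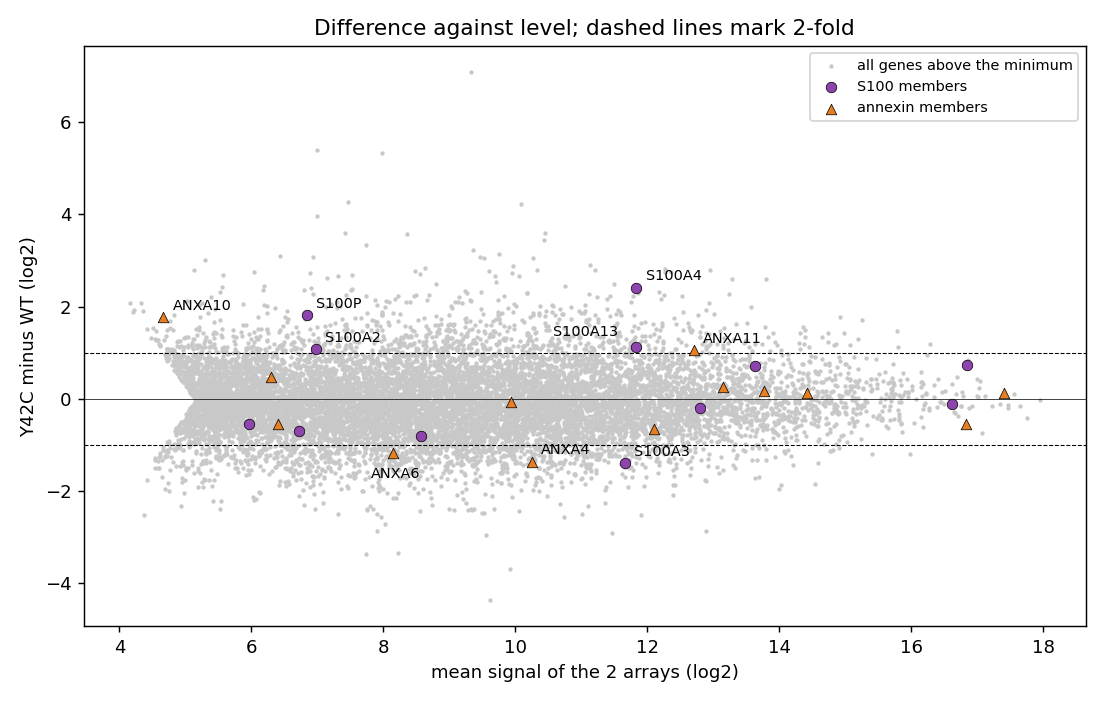
Difference between the arrays (Y42C minus WT, log2) against the mean signal of the 2 arrays (log2) for the 11802 genes above the minimum in grey, with S100 members as circles and annexin members as triangles; dashed lines mark 2-fold. The 9 labelled members are the ones apart by 2-fold or more, with S100A4 at 2.41 and S100A3 at -1.39, and the members whose mean signal is above 16 lie between -0.55 and 0.74.

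The promoters of the 4 members with the largest differences among those above the minimum on both arrays, 2 in each direction, are shown to set the neighbours S100A4 and S100A3 side by side, with S100P and ANXA4. Each is the RefSeq sequence on GRCh38.p14, from 250 bases before to 50 bases after the gene's annotated start, written 5′ to 3′ on the gene's strand. Capitals mark matches, on either strand, to the AP-1 motif TGANTCA, the start-site motif TATAAA, the TEAD motif GGAATG, the SP1 motif GGGCGG and the NF-Y motif CCAAT, where matches may overlap. S100A4 lies at chr1:153545757-153546056 on the minus strand, S100P at chr4:6693628-6693927 on the plus strand, S100A3 at chr1:153549209-153549508 on the minus strand and ANXA4 at chr2:69643558-69643857 on the plus strand.
S100A4: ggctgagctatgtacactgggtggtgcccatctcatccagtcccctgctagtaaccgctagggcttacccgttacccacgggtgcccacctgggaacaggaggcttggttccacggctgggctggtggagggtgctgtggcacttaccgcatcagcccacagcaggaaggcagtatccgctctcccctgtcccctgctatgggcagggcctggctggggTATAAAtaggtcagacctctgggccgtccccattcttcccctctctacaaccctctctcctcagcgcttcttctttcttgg
S100P: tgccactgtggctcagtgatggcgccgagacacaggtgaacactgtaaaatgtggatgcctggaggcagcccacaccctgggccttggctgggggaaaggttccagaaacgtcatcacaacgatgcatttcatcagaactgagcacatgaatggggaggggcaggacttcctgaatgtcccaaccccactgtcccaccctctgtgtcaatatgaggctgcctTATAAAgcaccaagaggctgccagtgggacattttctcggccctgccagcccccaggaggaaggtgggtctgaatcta
S100A3: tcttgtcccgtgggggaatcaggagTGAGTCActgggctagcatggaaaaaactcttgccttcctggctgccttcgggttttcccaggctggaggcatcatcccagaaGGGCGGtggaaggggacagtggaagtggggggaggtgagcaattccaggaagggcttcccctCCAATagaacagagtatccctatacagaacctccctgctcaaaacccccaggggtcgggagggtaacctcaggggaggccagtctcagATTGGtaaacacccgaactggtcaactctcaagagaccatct
ANXA4: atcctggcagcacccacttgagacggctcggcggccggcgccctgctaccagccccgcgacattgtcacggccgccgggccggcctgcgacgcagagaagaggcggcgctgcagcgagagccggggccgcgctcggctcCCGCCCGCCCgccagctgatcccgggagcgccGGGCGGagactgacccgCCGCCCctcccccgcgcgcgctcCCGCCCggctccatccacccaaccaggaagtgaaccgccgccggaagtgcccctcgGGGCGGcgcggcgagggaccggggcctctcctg

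S100A4 and S100P, the members with the most positive differences above the minimum on both arrays, each had 1 match, TATAAA starting at -31 and at -28 from the gene's start. S100A3 had TGANTCA at -225, GGGCGG at -142 and CCAAT at -80 and 9, and no TATAAA. ANXA4 had 6 GGGCGG matches between -111 and 18 and none of the other motifs. RefSeq promoters were given for 31 of the 34 members and for 14250 array genes in all. TATAAA was in 12 of the 31 (38.7%), in 9.41% of all 14250, and in 6.28% of the 9703 promoters of genes above the minimum. By difference, it was in 4 of 6 promoters of the members at least 2-fold higher, namely S100A4, S100P, ANXA10 and ANXA11. It was in 0 of 3 promoters of the lower members, in 3 of 15 of those within 2-fold, and in 5 of 7 of those below the minimum. ANXA10 passed the minimum through Y42C alone, and the ANXA11 match starts at -61. The same split by difference was not made over all genes. GGGCGG was in 12 of the 31, in 59.5% of all promoters and in 69.1% of those of genes above the minimum. Among the 12 were 3 of 3 lower members and 1 of 6 higher ones (S100A13). TGANTCA was in 4 of the 31 and 5.75% of all promoters, and its 4 members, S100A2, S100A3, ANXA2 and S100A12, included 1 higher and 1 lower one. CCAAT was in 7 of the 31 (36.4% of all) and GGAATG in S100A16 alone (11.6% of all). A match says only that these letters are present in this window.

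The genes of the annexin-S100 partner pairs were far above the minimum on both arrays. Their RNA signals did not always lean the same way within a pair. ANXA2, a plasminogen-binding surface annexin, had 17.46 in Y42C and 17.34 in WT, and its partner S100A10, an S100 protein that has lost calcium binding, had 16.56 in Y42C and 16.67 in WT. Their differences were 0.12 and -0.11, so this pair was nearly level between the arrays. ANXA1, a glucocorticoid-induced annexin that signals through formyl peptide receptors, had 16.56 in Y42C and 17.11 in WT, 1.46-fold lower. Its partner S100A11 had 17.22 in Y42C and 16.48 in WT, 1.67-fold higher, so this pair leaned in opposite directions by less than 2-fold each. S100A6, calcyclin, had 12.70 in Y42C and 12.89 in WT, a difference of -0.19, against a positive one for its partner ANXA11, given above. S100A8 and S100A9 form calprotectin, an alarmin of myeloid cells and stressed epithelium. S100A8 had 6.37 in Y42C and 7.06 in WT, 1.61-fold lower, and S100A9 had 8.17 in Y42C and 8.97 in WT, 1.74-fold lower. Both calprotectin genes leaned the same way, by less than 2-fold.

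Because S100A8 and S100A9 also mark myeloid cells, leukocyte markers are given beside them. Of 9 such markers named here, 5 were above the minimum in Y42C and 3 in WT. Their values ran between 3.36 and 6.42 in Y42C and between 3.09 and 7.45 in WT. LYZ, ITGAM, FCGR3A and MS4A1 were below the minimum on both arrays. PTPRC (5.39 in Y42C and 4.61 in WT) and CD3E (5.67 in Y42C and 4.70 in WT) were above it in Y42C alone. CSF1R (6.42 in Y42C and 6.14 in WT) and ITGB2 (5.18 in both) were above it on both arrays. CD14 was 3.43-fold lower in Y42C (5.67, against 7.45 in WT), so the markers differed in both directions. Their part in the S100A8 and S100A9 values was not tested. Both arrays are of a cultured gastric cancer line and not of a mixed tissue, so these markers do not measure a share of leukocytes. S100A12, a myeloid S100 gene, was below the minimum on both arrays.

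The remaining members above the minimum stayed within 2-fold. S100A16, a widely expressed S100 gene, had 13.99 in Y42C and 13.27 in WT, 1.65-fold higher. S100A1, a regulator of calcium release in muscle, had 5.69 in Y42C and 6.23 in WT, 1.45-fold lower and close to the minimum. S100A1 overlaps S100A13 on the opposite strand in the RefSeq annotation, and their differences had opposite signs (-0.54 and 1.13). ANXA3 had 11.77 in Y42C and 12.42 in WT, 1.57-fold lower. ANXA5, the phosphatidylserine-binding protein used to stain dying cells, had 14.49 in Y42C and 14.36 in WT. ANXA7, which promotes fusion of secretory granules, had 9.90 in Y42C and 9.96 in WT. These 2 annexins were nearly level. The difference of ANXA7 turns to 0.04 once each array is centred on its median over the genes above the minimum. ANXA8 had 13.27 in Y42C and 13.02 in WT, and its near-identical copy ANXA8L1 had 13.85 in Y42C and 13.67 in WT. These copies may share probes, so their agreement is not a second observation. ANXA9, an annexin with degenerate calcium sites, had 6.12 in Y42C and 6.67 in WT, 1.46-fold lower and close to the minimum. ANXA2R, close to the minimum as well, had 6.53 in Y42C and 6.05 in WT, 1.39-fold higher. Differences of this size are not rare here, since the SD of the difference was 0.77 over all genes above the minimum. Across the olfactory receptor genes that serve as background the SD was 0.44, and 4.30% of those genes were past 2-fold. Those genes have low signal, so their SD does not give the spread at higher levels.

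The 9 members below the minimum on both arrays included markers of other tissues and of differentiated skin. They were S100A5, S100A7, S100A7A, S100A12, S100A14, S100B, S100G, S100Z and ANXA13. Their values lay between 3.10 and 5.13 in Y42C and between 2.58 and 4.75 in WT. S100A7, psoriasin, came nearest, with 5.13 in Y42C against a minimum of 5.14, and 4.62 in WT. S100A7A, whose sequence is close enough that probes may be shared, had 4.56 in Y42C and 3.90 in WT. S100A14 had 5.04 in Y42C and 4.75 in WT, and S100A5, which overlaps S100A4 on the same strand in the annotation, had 4.98 in Y42C and 4.41 in WT. The glial S100B (3.51 in Y42C and 3.37 in WT), the intestinal calcium carrier S100G (3.76 in Y42C and 4.47 in WT), S100Z (3.94 in Y42C and 4.06 in WT) and the intestinal ANXA13 (3.77 in Y42C and 2.58 in WT) lay among the background genes. No fold is given for these, since both arrays were below the minimum.

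Along chromosome 1, 16 S100 genes and 46 other genes named here lie in order from S100A10 to S100A1, with S100A10 and S100A11 at one end, the genes for filaggrin-like, late cornified envelope and small proline-rich proteins in the middle, and the remaining S100 genes at the other end. Of the S100 genes, 11 were above the minimum, 3 of them higher and 1 lower by 2-fold or more (median -0.11), beside 7.46% and 9.8% of all genes. Among S100 genes above the minimum, differences changed sign along part of the run, as in S100A6 (-0.19), S100A4 (2.41), S100A3 (-1.39) and S100A2 (1.07). Other stretches kept 1 sign, as in S100A9 (-0.80) and S100A8 (-0.69), and in S100A2, S100A16 (0.72) and S100A13 (1.13). Of the 46 genes between them, 14 were above the minimum, 8 of these through Y42C alone, so that they had to differ. SPRR1B, 1 of the 8, had 9.70 in Y42C and 4.30 in WT, at least 23.1-fold higher. Of the 6 above it on both arrays, 5 were higher and 0 lower by 2-fold or more (median 1.20), beside the same shares of all genes. They were SPRR1A (7.08), FLG (2.12), LCE1C (1.24), LCE3B (1.16) and LCE1E (1.04), and LCE4A lay at -0.64. The order is that of GRCh38.p14, and late cornified envelope genes resemble each other closely and may share probes.

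**Figure D3:**
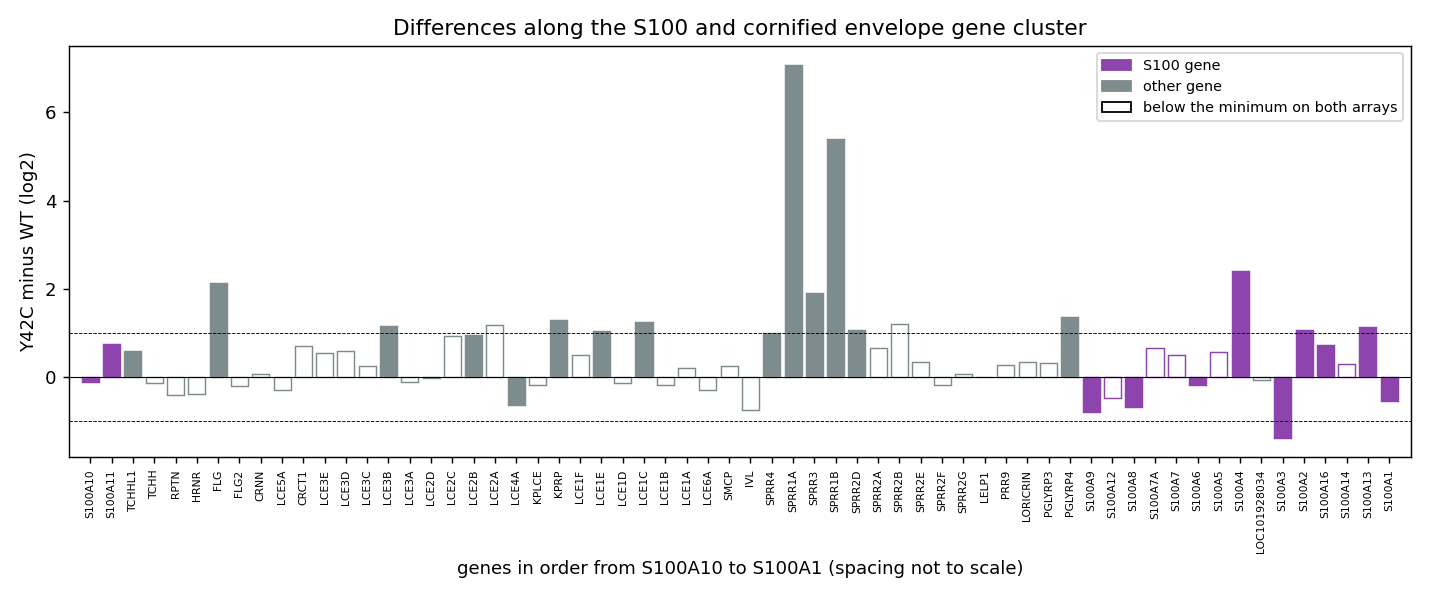
Y42C minus WT (log2) for the 62 genes named here from S100A10 to S100A1 in chromosome order, with spacing not to scale; S100 genes are purple, other genes grey, open bars are below the minimum on both arrays, and dashed lines mark 2-fold. S100A4 (2.41) and S100A3 (-1.39) stand close together at the right, and SPRR1A (7.08) is the highest bar.

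The S100-fused type genes, which join an S100 domain to a long repeat region, had 2 of 7 members above the minimum. FLG, filaggrin, was 4.35-fold higher, with 10.38 in Y42C and 8.26 in WT. TCHHL1 had 5.20 in Y42C and 4.61 in WT, at least 1.02-fold higher, and 5 others, among them HRNR and RPTN, were below the minimum on both arrays.

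Of the receptors that S100 proteins and annexins act on, 5 of 10 were above the minimum, 1 of them higher and 0 lower by 2-fold or more, beside 7.46% and 9.8% of all genes. Their median of 0.48 includes ANXA2R and CD36, and CD36 passed the minimum through Y42C alone; over the 4 above it on both arrays the median was 0.26. BSG, basigin, a receptor of S100A9, was 2.19-fold higher, with 16.37 in Y42C and 15.24 in WT. AGER, which encodes RAGE, was level and close to the minimum, with 5.58 in Y42C and 5.61 in WT. The formyl peptide receptor genes FPR1, FPR2 and FPR3 and the S100A8-S100A9 receptor gene TLR4 were below the minimum on both arrays. CD69 was below it as well, CD36 was at least 1.07-fold higher in Y42C, and CD63 differed by 0.04.

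Of the intracellular partners, 18 were above the minimum, 2 of them higher and 5 lower by 2-fold or more, beside 7.46% and 9.8% of all genes. Their median was -0.66, against -0.07 over all genes. The lower ones were AHNAK, the giant scaffold that binds ANXA2 with S100A10 (3.23-fold, 11.13 in Y42C and 12.82 in WT), GCA (2.68-fold), and SRI and PDCD6 (each 2.64-fold), whose products bind ANXA7 or ANXA11. GCA, SRI and PDCD6 are penta-EF-hand genes, as are PEF1, CAPN1, CAPN2 and CAPNS1, which differed by 0.07, -0.52, 0.30 and 0.04. S100PBP, which encodes an S100P-binding protein, was 2.35-fold lower, with 8.81 in Y42C and 10.04 in WT, while S100P was higher. The higher ones were DYSF, dysferlin, at least 4.08-fold (7.20 in Y42C and 5.17 in WT, just below the minimum there), and MYH9, the heavy chain of the myosin that S100A4 binds, 2.53-fold (13.46 in Y42C and 12.12 in WT). CACYBP, the calcyclin-binding protein, differed by -0.82, and EZR, ezrin, which S100P activates, by -0.15.

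Plasminogen activation at the cell surface, where ANXA2 with S100A10 acts, had 7 genes above the minimum, 2 of them higher and 0 lower by 2-fold or more (median 0.03), beside 7.46% and 9.8% of all genes. PLAU, urokinase, differed by 2.70 on the log2 scale, with 9.91 in Y42C and 7.21 in WT, and its receptor PLAUR was 2.75-fold higher, with 10.39 in Y42C and 8.93 in WT. PLAT, tissue plasminogen activator, was level (14.35 in Y42C and 14.28 in WT), and the plasminogen receptor gene PLGRKT and ENO1 lay at -0.86 and -0.75.

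Genes of calcium-dependent membrane repair had 2 of 15 higher and 0 lower by 2-fold or more (median 0.07), beside 7.46% and 9.8% of all genes, and DYSF, 1 of the 2, passed the minimum through Y42C alone. Beside DYSF, SMPD1, acid sphingomyelinase, was 3.86-fold higher, with 10.46 in Y42C and 8.51 in WT. MYOF, a relative of dysferlin that stands in the list of partners as well, lay at -0.78. Other EF-hand calcium-binding genes had 1 of 26 (3.85%) higher and 2 (7.69%) lower by 2-fold or more (median 0.08), beside the same shares. This list leaves out the penta-EF-hand genes GCA, SRI, PDCD6 and PEF1, which were counted among the partners. GCA, SRI and PDCD6 were lower by 2-fold or more, so the lower share depends on where they are placed. CALB1, the calcium buffer calbindin, was 3.58-fold higher, with 10.43 in Y42C and 8.59 in WT. NUCB2, nucleobindin, and CETN3, a centrin of the centrosome, were 2.48-fold and 2.38-fold lower.

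**Figure D4:**
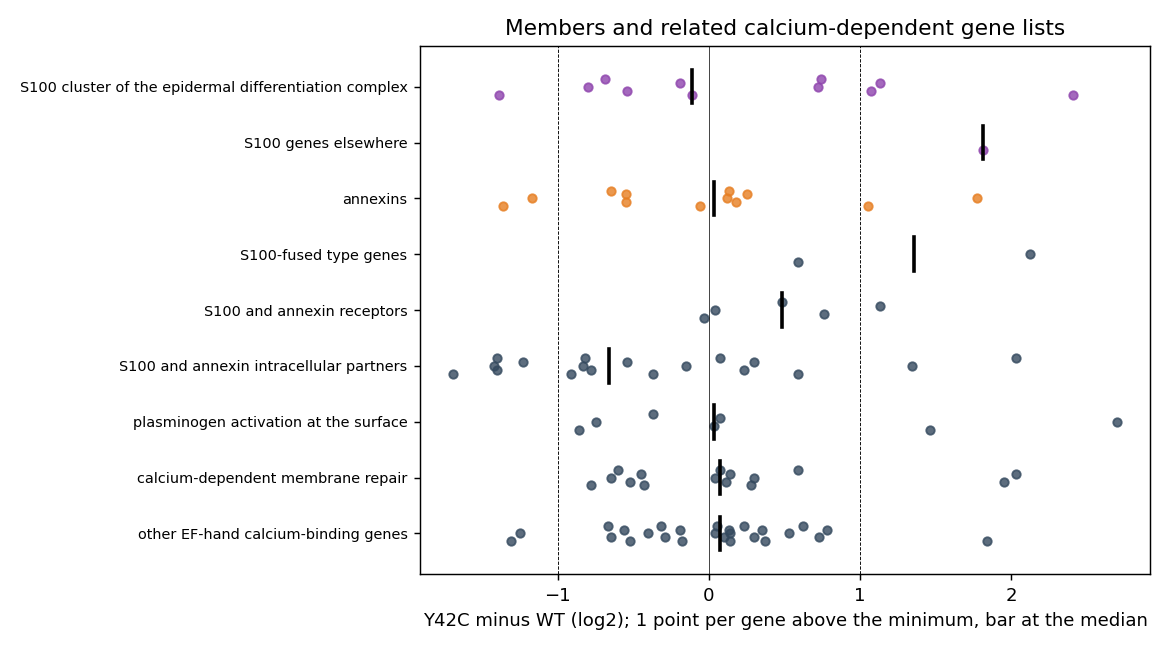
Y42C minus WT (log2) of each gene above the minimum (points) in the S100 and annexin lists and in 6 related lists, with a bar at the median of each and dashed lines at 2-fold; some genes stand in more than 1 list. The intracellular partners have the lowest median (-0.66), annexins lie at 0.03 without ANXA2R, and PLAU (2.70) is the highest point of the related lists.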

How the data were processed

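Total RNA of 2 MKN1 lines was turned into biotinylated cRNA for Affymetrix arrays, per the labels' protocols. The values deposited by the authors are 1 signal per probe set and array on a log scale, taken as log2 from their range (2.23 to 18.16); the base is not stated, so folds assume log2. Affymetrix Expression Console was used, per the submitters' processing notes; for its version, background correction and normalization the sources used here say nothing. Precision is limited by the number of arrays, 1 per line.

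Of 21448 probe sets, 17709 had 1 gene symbol, 0 had several and 3739 are unnamed here; probe sets of 20 of 17687 genes were averaged. Differences are Y42C minus WT, with no test. Folds with the dimmer array below the minimum are bounds against that array's minimum. Members, lists and motifs were chosen with earlier results of these data known. Every member was named, and of related lists every gene past 2-fold, with further genes picked after their values were seen. In simulated data on the Y42C against WT comparison with 11802 genes, 200 of 200 genes changed by 4-fold passed 2-fold, and 0 unchanged genes did. The simulated noise was set narrower than the spread of the olfactory receptor genes between the arrays (SD 0.44, 4.30% past 2-fold). The simulation therefore checks the code and does not give the rate of false calls on these 2 arrays. Alternatives covered quantile normalization, centring, a lowess trend on level (span 0.3) taken out, other minimums (90th and 99th percentile, array median, none), low values raised to the minimum, 16 added to linear values, the brightest probe set, other folds and other member choices. Computation used NumPy 2.4.6 and pandas 2.3.3 under Python 3.11.15, lowess came from statsmodels 0.14.6, and plots from matplotlib 3.10.9.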

Additional observations from a re-analysis of the deposited data

How the results depend on the processing

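Of 247 differences of single members recomputed under 10 settings, 88 belonged to the 9 members past 2-fold. Many values could not change. Other minimums only select members, and with 1 probe set per member the brightest one is the same value. Raising low values could alter ANXA10 alone. ANXA10 was dropped, and so not counted, at the higher percentile minimum and at the array median, which left 5 higher members in each. For other members only centring, quantile normalization, the lowess trend and the added constant could move a value. None of these 88 changed sign and 2 fell under 2-fold, both in the positive direction: ANXA10 with low values raised to the minimum (0.38) and S100A2 with 16 added to the linear value (0.95). The cause of the first is that the WT value of ANXA10 was below the minimum. Of 159 values of members within 2-fold, 0 passed it and 3 changed sign, all of ANXA7. The 6 higher members became 1 (S100A4) at 4-fold, and the 3 lower members became 6 at 1.5-fold and 0 at 4-fold. The annexin median of 0.12 is positive and the annexin mean, -0.028, negative. Over all settings, the mean included, the annexin summary ran from -0.028 to 0.22 and the S100 summary from 0.22 to 0.72. Centring each array on its median over the genes above the minimum gave 1121 genes at least 2-fold higher and 943 lower. That is a share of 54.3% higher among those past 2-fold, against 43.2% as deposited. Counting near-identical copies as 1 gene, chosen after seeing the data, left the counts of members past 2-fold at 6 and 3. These counts could not change, since ANXA8 and ANXA8L1 differed by 0.25 and 0.18, and S100A7 and S100A7A were below the minimum. No paired analysis was possible because each line has 1 array. No replicate could be left out for the same reason, and members near the minimum of 5.14 in Y42C or 5.17 in WT are limited by background signal.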
